A study of Mus musculus with 3 samples.

Results

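The genes described here are the 10 named members of a purinergic signalling list, out of 31053 genes in the count tables. They were chosen by symbol, as the channel gene Panx1, the ionotropic receptor genes P2rx3, P2rx4 and P2rx7, the G protein-coupled receptor genes P2ry1, P2ry12 and P2ry14, and the ectonucleotidase genes Entpd1, Entpd2 and Nt5e. Every member was found by its symbol and had UMIs in each of the 3 libraries. Cells release ATP when stressed or active, in part through pannexin channels. Extracellular ATP opens P2X receptors, which are cation channels, while P2Y receptors respond to ATP, ADP or sugar nucleotides through G proteins. Enzymes on the cell surface then strip phosphates from ATP to leave AMP and, from AMP, adenosine, and in DRGs this signalling is known between nociceptive neurons, satellite glial cells (SGCs) and macrophages.

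The series holds single-cell libraries from L3 and L4 DRGs of both sides in male C57BL/6J mice, at postnatal week 13. There were 3 conditions, naïve (untreated), 7 days after spared nerve injury on both sides and 14 days after the same injury, with 1 library each. Each library pooled 8 DRGs from 2 perfused mice, dissociated with collagenase and dispase, and UMIs were counted from the 3′ ends of transcripts. Condition, animals and library therefore cannot be told apart, and the intervals given here cover counting error only. The naïve library held 23107376 UMIs in 3748 barcodes, the day 7 library 22343246 UMIs in 3281 barcodes and the day 14 library 36550911 UMIs in 4908 barcodes. The naïve library shared 1 barcode with day 7 and 6 with day 14, and the injury libraries shared 2. The cell filter asked for 500 genes or more and a mitochondrial share of 20% or less, and left 3152, 2682 and 3828 cells, with median depths of 3072, 4010.5 and 4199 UMIs.

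Each kept cell was placed by fixed marker genes, none of them a purinergic gene. In the order naïve, day 7, day 14, the gate gave 120, 118 and 134 neurons, 718, 479 and 673 SGCs, 1488, 1209 and 1753 Schwann cells, and 67, 208 and 247 macrophages. Of 9662 kept cells, 820 lay near a limit of the gate and 729 matched no class. Neurons carried all 12 neuronal markers, at 12649, 14359 and 14653 CPM in sum, led by Uchl1 in the naïve library and by Tubb3 after injury. SGCs carried their 7 markers at 12044, 12236 and 10803 CPM, led by Fabp7, with Dio2 at 0 in the naïve library. Macrophages carried 9 of 9 markers at 19346, 19225 and 17962 CPM, led by C1qa. The median neuron had 71972.5, 5979.5 and 80648.5 UMIs, so day 7 neurons were far shallower, and 18, 66 and 24 neurons had under 10000 UMIs. The median SGC had 5383, 7026 and 6811 UMIs, the median Schwann cell 2429, 3510 and 3475, and the median macrophage 2154, 4348.5 and 3584.

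The first question was where each gene of the pathway was read out. Levels are UMIs of the gene over all UMIs of a class in a library, scaled to CPM, with exact Poisson 95% intervals. For all 10 members, the highest of the 4 classes was the same class in all 3 libraries, against 69.4% of the 15341 genes with at least 20 UMIs. That background was not matched for level. P2ry14 had 62 UMIs in the 4 classes and the other members 756 to 3196, so most lay far above its lower limit. Neurons led for Panx1, P2rx3, P2ry1 and Nt5e, SGCs for Entpd2, and macrophages for P2rx4, P2rx7, P2ry12, P2ry14 and Entpd1. In 5 members, P2rx3, P2ry1, P2ry14, Panx1 and Nt5e, the leading class stood at least 4-fold above the next in every library, against 18.9% of the same genes, though for P2ry14 the naïve value rests on 1 UMI. The count of 10 was 9 with stricter cell filtering, where P2rx7 in the naïve library was highest in Schwann cells, and with clusters in place of the gate, where P2ry14 in the naïve library was highest in neurons. Without the cell that held most UMIs of each gene it was 8, P2rx7 and P2ry14 being the exceptions. With non-myelinating Schwann cells in place of all Schwann cells it was 9, with P2rx7 at day 7, and Entpd2 in every library, highest in those cells.

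**Figure D1:**
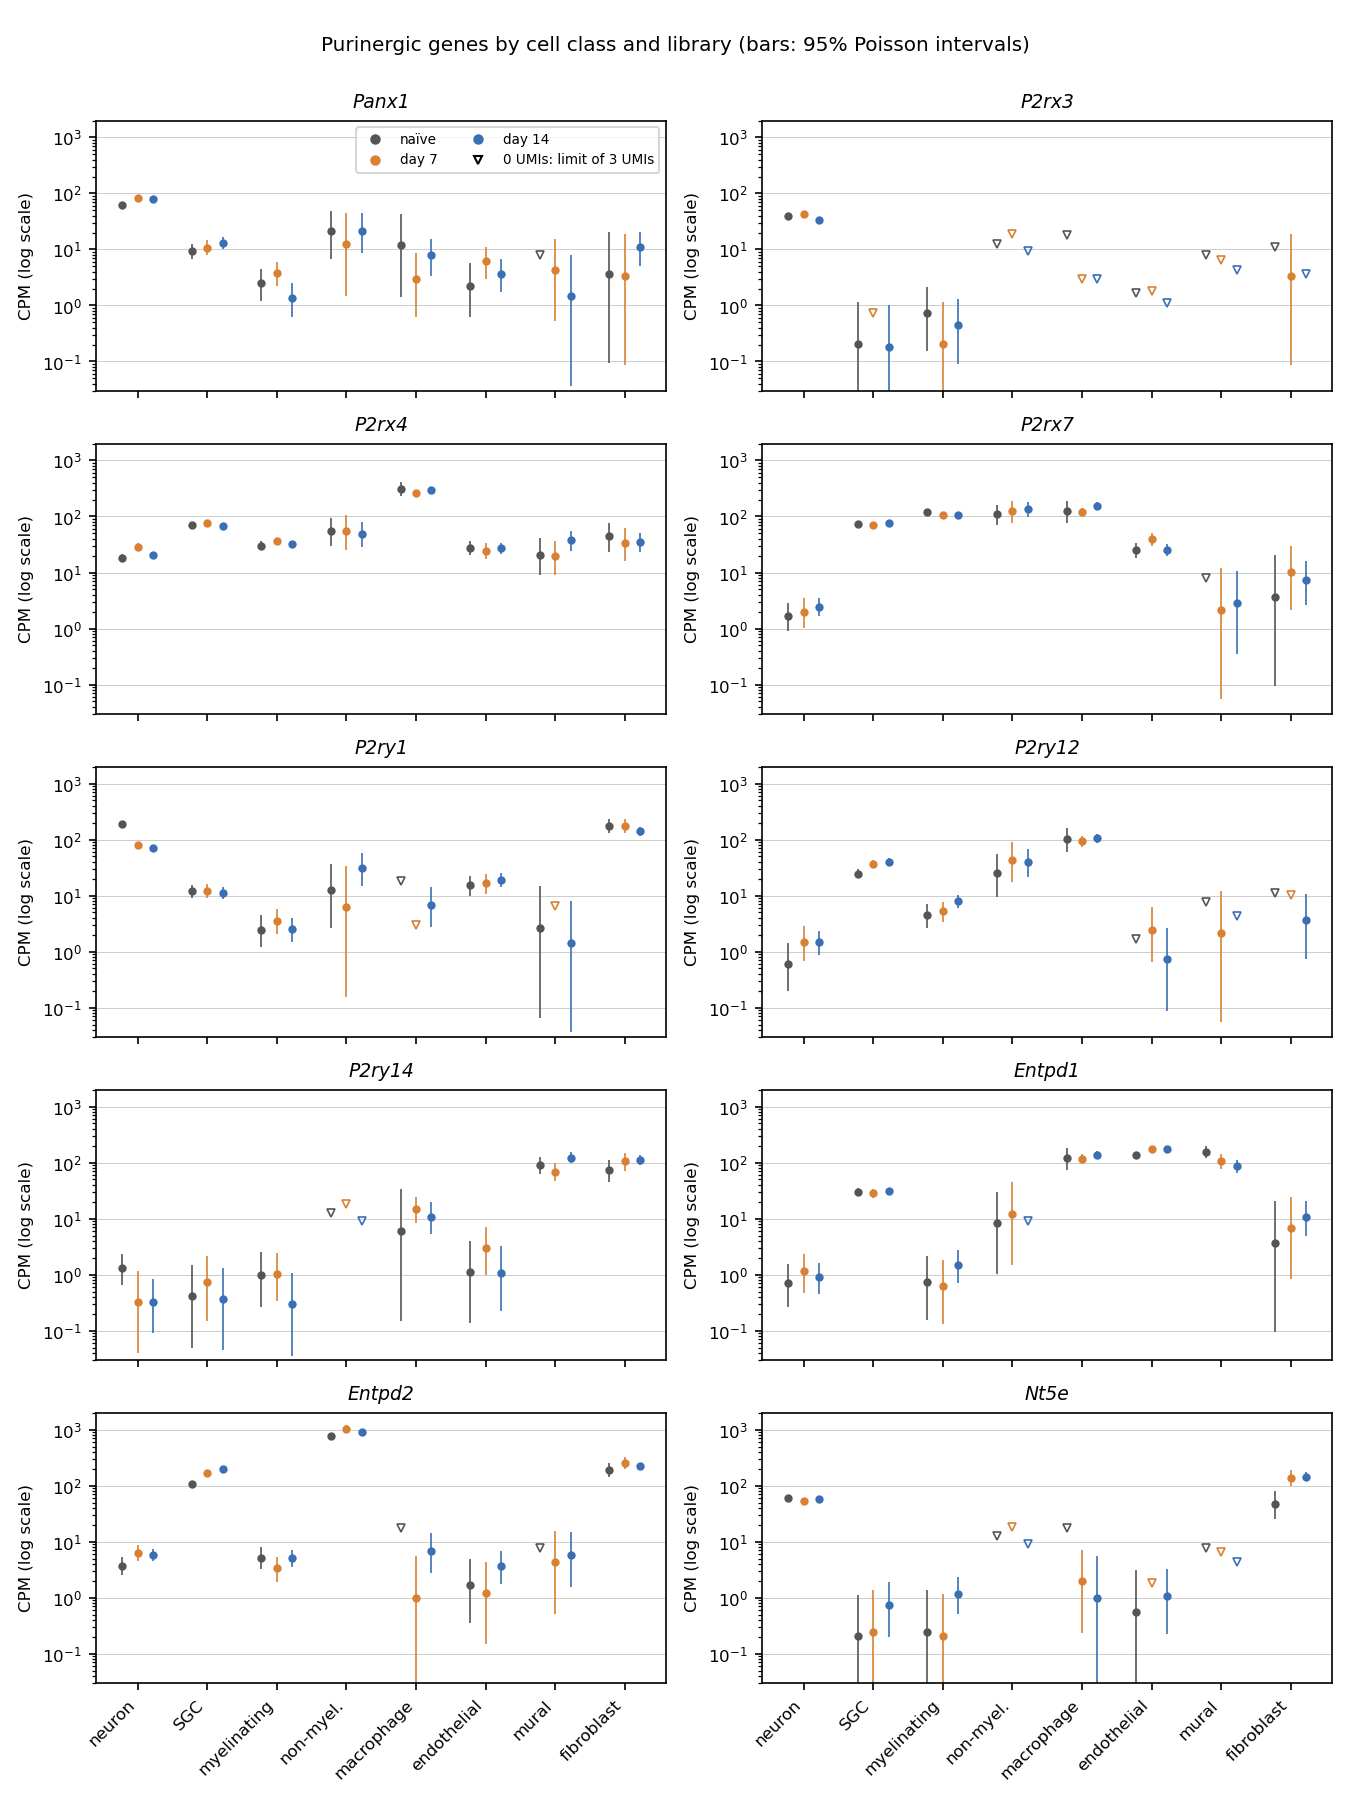
Level of each of the 10 genes (CPM, log scale) by gated cell class, with points for the naïve, day 7 and day 14 libraries and bars for 95% Poisson intervals; open triangles mark the limit of 3 UMIs where 0 were counted. P2rx3 was read almost only in neurons, while Entpd2 was highest in non-myelinating Schwann cells, fibroblasts and SGCs.

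The second question was how the levels after nerve injury compared with naïve DRGs. A gene was compared where both libraries together held at least 20 UMIs of it in the class, and was called where the ratio of CPM passed 2-fold. In their leading class, 9 of the 10 members could be compared at each time, and 1 was called at day 7 and 1 at day 14, P2ry1 in neurons both times. In neurons, 1 of 7 members was called at day 7 and 2 of 8 at day 14, P2ry1 and, on 18 and 5 UMIs, P2ry12, beside 5.27% and 8.26% of all genes, and counts this small do not set the members apart. In macrophages, 4 members were compared and 0 called, where 14.4% and 15.7% of all genes were called. In SGCs, 7 members were compared and 0 called, beside 2.38% and 3.39% of all genes, and in Schwann cells 6 members were compared and 0 called, beside 2.02% and 3.35%. In neurons, 7 members were compared at day 7 with a median log2 ratio of 0.23 beside 0.02 over all genes, and 8 at day 14 with a median of 0.25 beside 0.09. The members' medians at day 7 and day 14 were 0.16 and 0.06 in SGCs, 0.20 and 0.01 in Schwann cells, and -0.09 and 0.14 in macrophages. The day 7 and day 14 comparisons share the naïve library.

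Panx1 codes for the pannexin channel through which ATP can leave cells (chr9:15002128-15045478, minus strand, GRCm38; ENSMUSG00000031934). In neurons it stood at 61.5 CPM in the naïve library (95% interval 56.3 to 67.0), 83.7 CPM at day 7 (76.6 to 91.3) and 78.5 CPM at day 14 (73.6 to 83.6). The neuronal log2 ratio was 0.44 (95% interval 0.27 to 0.62) at day 7 and 0.35 (0.20 to 0.51) at day 14, so both injury libraries lay above the naïve one and neither reached 2-fold. Giving each neuron the same weight, the day 7 log2 ratio was -0.07, so its direction turned. That weighting counts the 66 day 7 neurons under 10000 UMIs as much as the deeper ones. With UMIs summed over neurons of at least 10000 UMIs, the day 7 log2 ratio was 0.475 (0.29 to 0.66). Panx1 was a broad neuronal gene, found in 95 of 102, 49 of 52 and 105 of 110 neurons with at least 10000 UMIs. Neuron subgroups were set cell by cell from a few marker genes, also after injury, so a subgroup need not hold the same neurons in each library. Non-peptidergic cells made up 30.8, 35.6 and 14.2% of neurons and peptidergic ones 32.5, 24.6 and 59.0%. By subgroup, Panx1 stood at 68.4, 85.6 and 87.1 CPM in non-peptidergic neurons (Mrgprd, Lpar3), at 77.9, 86.8 and 87.7 CPM in peptidergic neurons (Tac1, Calca) and at 35.9, 42.1 and 35.0 CPM in C-low-threshold neurons (Th, Slc17a8). The C-low-threshold neurons were thus the lowest of these subgroups in every library, and the non-peptidergic ratios were 0.32 (0.04 to 0.60) at day 7 and 0.35 (0.08 to 0.62) at day 14. The peptidergic ratios were 0.16 (-0.16 to 0.47) and 0.17 (-0.08 to 0.43), with intervals that include 0. So do those of the C-low-threshold ratios, 0.23 (-0.355 to 0.79) and -0.04 (-0.56 to 0.48). SGCs held Panx1 at 9.21 CPM in the naïve library (95% interval 6.72 to 12.3), 10.8 CPM at day 7 (7.85 to 14.5) and 12.9 CPM at day 14 (10.1 to 16.3), and macrophages at 11.9, 2.97 and 7.90 CPM on 2, 3 and 8 UMIs. Thinned to 2000 UMIs per cell, 12.2, 12.2 and 14.4% of neurons had a Panx1 UMI, against 1.75, 2.24 and 2.66% of SGCs and 0.634, 0.863 and 0.374% of Schwann cells. The neuronal share therefore stayed above the glial one at equal depth in each library, with 8, 36 and 12 neurons too shallow to be thinned.

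P2rx3 codes for an ATP-gated channel known from small nociceptive neurons (chr2:84998583-85037462, minus strand; ENSMUSG00000027071). Its neuronal level was 40.1 CPM in the naïve library (95% interval 36.0 to 44.7), 43.7 CPM at day 7 (38.6 to 49.3) and 32.9 CPM at day 14 (29.8 to 36.3). The day 14 library was the lowest, with log2 ratios of 0.12 (95% interval -0.11 to 0.36) at day 7 and -0.29 (-0.50 to -0.07) at day 14, and neither passed 2-fold. Outside neurons it was close to absent, at 1 UMI in 718 naïve SGCs and 0 UMIs in all macrophages (limits of 17.9, 2.97 and 2.96 CPM). A P2rx3 UMI was found in 61 of 120 naïve neurons, 44 of 118 at day 7 and 67 of 134 at day 14, and in 0.139, 0 and 0.149% of SGCs, at the median depths given above. Thinned to 2000 UMIs, the neuronal shares were 6.47, 10.4 and 4.79%, with 8, 36 and 12 neurons left out, so the order of the libraries turned, day 7 being lowest at full depth and highest at equal depth.

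P2rx3 was uneven among neurons. Non-peptidergic neurons held 73.0 CPM in the naïve library (95% interval 64.3 to 82.5), 56.5 CPM at day 7 (47.0 to 67.3) and 71.7 CPM at day 14 (61.7 to 83.0). Peptidergic neurons held 28.2 CPM in the naïve library (95% interval 21.5 to 36.4), 42.9 CPM at day 7 (34.3 to 53.1) and 26.0 CPM at day 14 (22.3 to 30.1), and C-low-threshold neurons 5.78, 3.24 and 4.71 CPM. Large-diameter neurons, 8, 18 and 16 cells, held 4.07, 62.7 and 25.3 CPM, with 64.4% of the day 7 UMIs in deep cells from 1 cell. The non-peptidergic subgroup was the highest in the naïve and day 14 libraries, and the large-diameter one at day 7. Without the non-peptidergic subgroup, whose share of neuron UMIs was 41.8%, 36.1% and 20.9%, P2rx3 stood at 16.5 CPM in the naïve library (95% interval 13.1 to 20.5), 36.5 CPM at day 7 (30.8 to 43.1) and 22.7 CPM at day 14 (19.8 to 25.9). Its log2 ratios there were 1.15 (0.74 to 1.56) at day 7, past 2-fold, and 0.46 (0.08 to 0.85) at day 14, where the direction turned. Of the 142 day 7 UMIs there, 29 came from 1 large-diameter neuron. Without it the day 7 log2 ratio was 0.89 (0.47 to 1.32), under 2-fold, and with the top naïve cell (8 of 80 UMIs) also left out it was 1.01 (0.57 to 1.45), so passing 2-fold rests on single cells. Leaving these cells out was a choice made after seeing the data. Within non-peptidergic neurons the log2 ratio was -0.37 (-0.69 to -0.06) at day 7 and -0.03 (-0.31 to 0.25) at day 14. Within peptidergic neurons it was 0.61 (0.11 to 1.11) and -0.12 (-0.55 to 0.33), so the day 7 values pointed opposite ways in these subgroups, a difference that was not tested. Among neurons with at least 10000 UMIs, P2rx3 was found in 37 of 40, 16 of 17 and 23 of 25 cells with a UMI of Mrgprd, and in 22 of 62, 14 of 35 and 43 of 85 cells without one. Single non-peptidergic neurons of that depth ranged from 0 to 156, 96.4 and 111 CPM, with medians of 73.2, 49.8 and 67.3 CPM.

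Neurons with the injury genes Atf3 or Sprr1a at 100 CPM or more were 3 of 120 in the naïve library, 49 of 118 at day 7 and 28 of 134 at day 14. In a cell under 10000 UMIs a single UMI reaches that limit, and 10 of the 49 at day 7 and 25 of the 28 at day 14 were deeper than this. Among the deeper neurons of day 7, P2rx3 stood at 72.1 CPM (56.3 to 90.9) with the injury genes and at 36.6 CPM (31.5 to 42.4) without, in 10 and 42 cells. At day 14 it stood at 35.0 CPM (28.4 to 42.8) and 32.4 CPM (28.9 to 36.3). The intervals lay apart at day 7 and overlapped at day 14, and the difference between the times was not tested. At day 7, 1 large-diameter neuron held 29 of 84 P2rx3 UMIs of all injury-marked cells and 60.1 CPM (45.3 to 78.3) remained without it. It was also 1 of the 10 deeper cells, where 53.1 CPM (38.3 to 71.8) remained, so that without it the day 7 intervals overlapped as well. For Nt5e the order was the other way, at 26.4 CPM (17.2 to 38.7) against 58.8 CPM (52.2 to 66.0) in deeper day 7 neurons, and at 32.2 CPM (25.8 to 39.6) against 67.1 CPM (62.0 to 72.6) at day 14. Panx1 read 93.4 and 83.6 CPM at day 7, and 82.4 and 77.7 CPM at day 14, with intervals that overlap. P2rx4 read 97.4 CPM (78.9 to 119) and 15.7 CPM (12.4 to 19.6) at day 7, 72 of the 96 UMIs in injury-marked cells coming from 1 cell. Without that cell 30.4 CPM (19.5 to 45.2) remained, and the intervals overlapped. At day 14 P2rx4 read 23.5 CPM (18.1 to 29.9) and 19.2 CPM (16.5 to 22.3). P2ry1 had 1 UMI in the 10 injury-marked neurons of day 7 and 480 in the other 42. At day 14 it stood at 29.99 CPM (23.9 to 37.2) in the 25 injury-marked neurons, 47 of 83 UMIs coming from 1 cell, against 83.9 CPM (78.1 to 90.0) in the others.

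P2rx4, a P2X receptor gene known from microglia and macrophages (chr5:122707544-122729738, plus strand; ENSMUSG00000029470), had its highest level in macrophages, at 310.2 CPM in the naïve library (95% interval 232 to 407), 260.0 CPM at day 7 (229 to 293) and 299 CPM at day 14 (267 to 335). These intervals overlap, and the log2 ratios were -0.25 (95% interval -0.69 to 0.20) at day 7 and -0.05 (-0.48 to 0.40) at day 14. It was found in 59.7, 66.8 and 59.1% of macrophages, and at 2000 UMIs in 45.5, 41.7 and 44.3%. SGCs followed at 69.4 CPM in the naïve library (95% interval 62.2 to 77.2), 77.6 CPM at day 7 (69.3 to 86.7) and 67.5 CPM at day 14 (60.7 to 74.8), and Schwann cells at 31.6, 36.5 and 33.0 CPM. Under the filter of 1000 genes and 10% mitochondrial UMIs, which left 105, 19 and 11 SGCs, the SGC log2 ratios were -0.57 and 0.72. Macrophages stood 4.47, 3.35 and 4.44 times above SGCs. Among macrophages, those without a UMI of the monocyte receptor gene Ccr2 held 352, 299 and 325 CPM and those with one 222, 204 and 246 CPM, so the Ccr2-negative cells were higher each time. The intervals lay apart at day 7 and overlapped in the naïve and day 14 libraries, and the difference was not tested. In neurons P2rx4 read 18.2 CPM in the naïve library, 28.8 CPM at day 7 and 20.2 CPM at day 14, a day 7 log2 ratio of 0.66 that was -0.02 without the cell holding most P2rx4 UMIs. That cell held 41.1% of the day 7 neuronal UMIs of P2rx4.

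P2rx7 codes for a P2X receptor that needs high ATP and is known from immune and glial cells (chr5:122643911-122691432, plus strand; ENSMUSG00000029468), and it was shared between macrophages and glia. Macrophages held 125 CPM in the naïve library (95% interval 77.5 to 191), 121 CPM at day 7 (100.1 to 144) and 152 CPM at day 14 (129 to 178). Schwann cells held 118 CPM in the naïve library (95% interval 108 to 129), 107 CPM at day 7 (97.9 to 116) and 107 CPM at day 14 (99.6 to 115), and SGCs 72.7 CPM in the naïve library (95% interval 65.3 to 80.7), 71.0 CPM at day 7 (63.1 to 79.7) and 75.6 CPM at day 14 (68.5 to 83.3). Macrophages and Schwann cells did not differ beyond counting error in the naïve and day 7 libraries, at ratios of 1.06 (0.651 to 1.64) and 1.13 (0.920 to 1.38), while at day 14 the ratio was 1.42 (1.19 to 1.69). Non-myelinating Schwann cells stood at 109.6, 123 and 136 CPM and myelinating ones at 119, 106 and 106 CPM. Neurons were the low class, at 1.68, 1.97 and 2.47 CPM, with a UMI in 10.0, 9.32 and 20.1% of neurons, at the median depths given above. At 2000 UMIs, 19.7, 19.9 and 19.95% of Schwann cells, 15.4, 14.5 and 15.4% of SGCs and 0.332, 0.404 and 0.926% of neurons had a UMI. After injury no class of the 4 reached 2-fold, with Schwann log2 ratios of -0.14 (95% interval -0.32 to 0.03) at day 7 and -0.14 (-0.31 to 0.02) at day 14 and SGC ratios of -0.03 (95% interval -0.26 to 0.19) at day 7 and 0.06 (-0.15 to 0.27) at day 14. Macrophages lacking a Ccr2 UMI held P2rx7 at 167, 146 and 179.6 CPM, and those with one at 37.0, 84.0 and 96.1 CPM, the naïve value resting on 2 UMIs. P2ry12, P2ry14 and Entpd1 did not keep this order in every library.

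P2ry1 codes for an ADP receptor coupled to Gq (chr3:61002795-61008982, plus strand; ENSMUSG00000027765). Its neuronal level was 193 CPM in the naïve library (95% interval 183 to 202), 79.1 CPM at day 7 (72.2 to 86.5) and 71.1 CPM at day 14 (66.4 to 76.0). The naïve library was high and both injury libraries were low, with log2 ratios of -1.28 (95% interval -1.43 to -1.14) at day 7 and -1.44 (-1.56 to -1.32) at day 14, on 1607, 481 and 864 UMIs. Of all genes in neurons, 1.95% at day 7 and 1.42% at day 14 were called lower, and P2ry1 was 1 of 7 and 1 of 8 members compared. Weighting each neuron alike, shallow ones included, the log2 ratios were -2.19 and -1.91. With UMIs summed over neurons of at least 10000 UMIs, they were -1.24 (-1.39 to -1.09) and -1.43 (-1.55 to -1.31).

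Most P2ry1 UMIs of neurons came from the C-low-threshold subgroup, 1545, 457 and 722 of them. That subgroup held 638 CPM in the naïve library (95% interval 606 to 670.3), 493 CPM at day 7 (449 to 540.4) and 486 CPM at day 14 (451 to 523), and its log2 ratios were -0.37 (-0.52 to -0.22) and -0.39 (-0.52 to -0.26). In every one of its cells with at least 10000 UMIs P2ry1 was found, 30, 9 and 13 of them, from 201, 176 and 243 CPM in the lowest cell to 1436, 838 and 652 CPM in the highest. The subgroup made up 34 of 120 naïve neurons, 11 of 118 at day 7 and 15 of 134 at day 14, which is 28.3% (95% interval 20.5 to 37.3), 9.32% (4.75 to 16.1) and 11.2% (6.40 to 17.8). Among neurons with at least 10000 UMIs it was 30 of 102, 9 of 52 and 13 of 110, so the day 7 share was higher there than among all neurons. Its share of neurons and the P2ry1 level of all neurons were thus both lower after injury, and their part in each other was not tested. Without the subgroup, neurons held P2ry1 at 10.5 CPM in the naïve library (95% interval 8.03 to 13.4), 4.65 CPM at day 7 (2.98 to 6.92) and 13.3 CPM at day 14 (11.2 to 15.7), with log2 ratios of -1.17 (-1.91 to -0.47) at day 7 and 0.35 (-0.09 to 0.80) at day 14. The day 14 call ended there and its direction turned, with 37 of the 142 day 14 UMIs coming from 1 cell. Without that cell the day 14 log2 ratio was -0.08 (-0.54 to 0.40). With the top naïve cell also left out it was 0.17 (-0.32 to 0.68), so the day 14 direction rests on single cells. The day 7 ratio was past 2-fold on 24 UMIs against 62, of which 10 came from 1 naïve cell. Without that cell it was -0.92 (-1.69 to -0.20), under 2-fold, and with the top day 7 cell (3 UMIs) also left out -1.05 (-1.86 to -0.29), choices made after seeing the data. Non-peptidergic neurons stood at 7.16, 5.92 and 5.91 CPM and peptidergic ones at 8.13, 3.53 and 9.83 CPM, with day 7 log2 ratios of -0.27 (-1.36 to 0.75) and -1.20 (-2.71 to 0.14), whose intervals include 0. Large-diameter neurons stood at 81.3, 2.67 and 50.5 CPM, on 8, 18 and 16 cells, and 55.6%, 100% and 61.7% of these UMIs in deep cells came from a single cell.

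**Figure D2:**
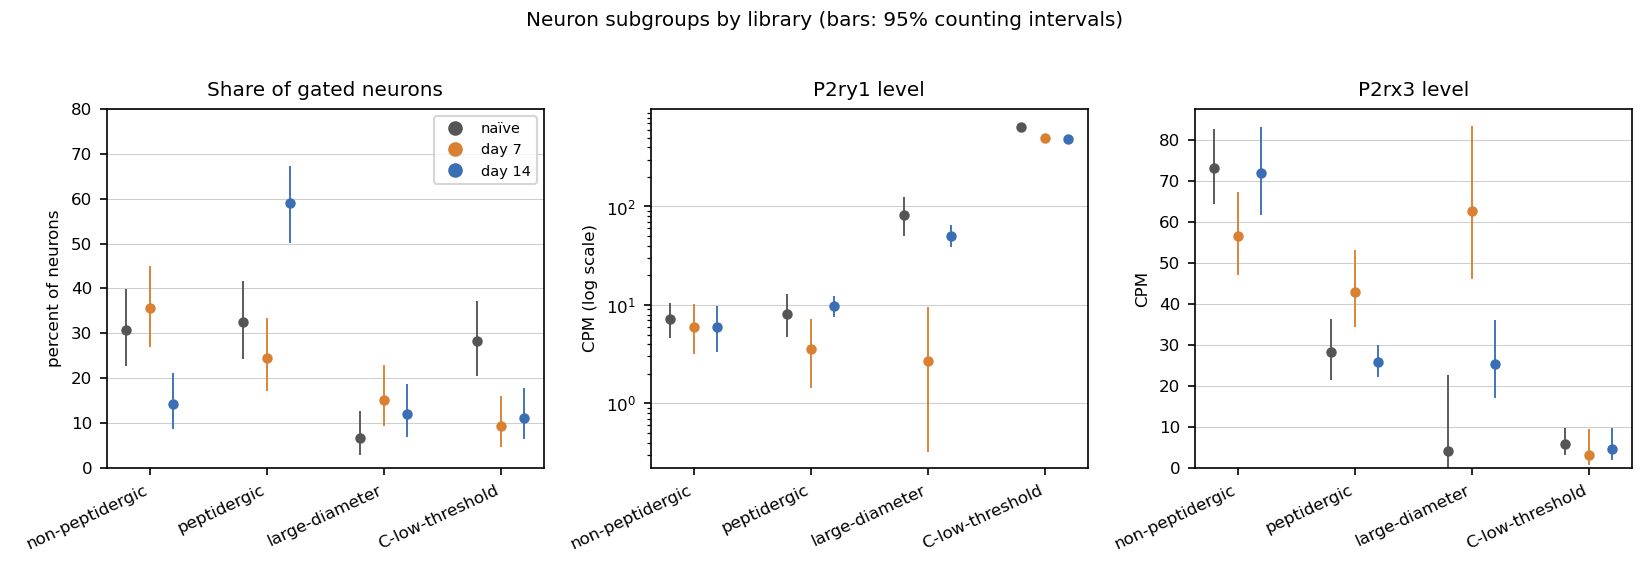
Share of gated neurons in each subgroup (percent, bars for 95% Clopper-Pearson intervals), the level of P2ry1 (CPM, log scale) and the level of P2rx3 (CPM) by subgroup in the naïve, day 7 and day 14 libraries, with 95% Poisson intervals on the levels. C-low-threshold neurons held P2ry1 at 638, 493 and 486 CPM, and their share of neurons was 28.3%, 9.32% and 11.2%.

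Among the other classes, fibroblasts read P2ry1 at 176 CPM in the naïve library (95% interval 130.0 to 234), 174 CPM at day 7 (129 to 229) and 140.3 CPM at day 14 (116 to 168). The log2 ratios were -0.02 (95% interval -0.62 to 0.58) at day 7 and -0.33 (-0.83 to 0.19) at day 14, with intervals that include 0. Weighting each fibroblast alike, they were -0.48 and -0.73. Fibroblasts stood near naïve neurons and above neurons after injury, the neuron to fibroblast ratio being 1.09, 0.455 and 0.507. SGCs held 11.9 CPM in the naïve library (95% interval 9.02 to 15.4), 12.0 CPM at day 7 (8.91 to 15.9) and 11.3 CPM at day 14 (8.63 to 14.5). These intervals overlap, and a P2ry1 UMI was found in 6.96, 9.81 and 8.02% of SGCs. Macrophages had 0 UMIs in the naïve and day 7 libraries (limits of 17.9 and 2.97 CPM) and 7 UMIs at day 14.

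P2ry12 codes for an ADP receptor coupled to Gi and is widely used as a marker of microglia (chr3:59216272-59262871, minus strand; ENSMUSG00000036353). Macrophages held it at 101 CPM in the naïve library (95% interval 59.1 to 162), 92.9 CPM at day 7 (75.1 to 114) and 105 CPM at day 14 (85.7 to 127). The log2 ratios were -0.13 (95% interval -0.88 to 0.71) at day 7 and 0.05 (-0.70 to 0.88) at day 14. Both intervals include 0 and are wide, with 17 naïve UMIs. SGCs held 24.6 CPM in the naïve library (95% interval 20.4 to 29.4), 36.1 CPM at day 7 (30.5 to 42.4) and 40.5 CPM at day 14 (35.3 to 46.2). Both injury libraries lay above the naïve one in SGCs, with log2 ratios of 0.56 (95% interval 0.20 to 0.92) at day 7 and 0.72 (0.39 to 1.05) at day 14, neither past 2-fold. A UMI was found in 15.04, 24.0 and 25.7% of SGCs and 20.9, 31.2 and 29.1% of macrophages, and in 4.17, 5.08 and 8.96% of neurons, a class that should lack it, at a greater median depth in the naïve and day 14 libraries. At 2000 UMIs the SGC shares were 4.88, 6.94 and 7.79%, the neuronal ones 0.239, 0.275 and 0.289% and the Schwann ones 0.864, 1.15 and 1.65%, with 41, 10 and 14 SGCs too shallow to be thinned.

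Macrophage transcripts in SGCs also differed between libraries. The 9 macrophage markers summed to 8.60, 19.2 and 46.0 CPM in SGCs, with 7, 8 and 9 of 9 found, Cd68 most abundant in the naïve library, C1qb at day 7 and C1qa at day 14, and with Aif1 and Mrc1 at 0 in the naïve library and Cd163 at 0 at day 7. In macrophages the same list summed to 19346, 19225 and 17962 CPM, and P2ry12 to 101 CPM in the naïve library. Within SGCs the list stood below P2ry12 in the naïve and day 7 libraries and above it at day 14. Leaving out the 30, 61 and 108 SGCs with any macrophage marker UMI, a choice made after seeing the data, P2ry12 stood at 24.7, 35.8 and 40.7 CPM, and its log2 ratio at 0.54 (0.16 to 0.92) at day 7 and 0.72 (0.37 to 1.07) at day 14. The part of macrophage transcripts in the SGC values was not tested. By clusters of SGCs it stood at 23.5, 39.2 and 36.9 CPM in the Egr3-led cluster and at 21.8, 34.9 and 43.2 CPM in the Fabp7-led cluster, higher after injury in both. The Cxcl10-led cluster held 32.9, 32.1 and 42.2 CPM on 24, 6 and 4 UMIs, and the Pou3f1-led one 31.1, 36.3 and 28.7 CPM on 4, 3 and 2 UMIs. In neurons P2ry12 had 5, 9 and 18 UMIs, and its day 14 log2 ratio of 1.31 (95% interval -0.18 to 3.09) passed 2-fold on these few counts, with an interval that includes 0. The day 7 ratio of 1.30 (95% interval -0.43 to 3.23) was not compared, being under the limit of 20 UMIs, so that limit alone sets these times apart.

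P2ry14 codes for the UDP-glucose receptor (chr3:59113855-59153618, minus strand; ENSMUSG00000036381) and was sparse in the 4 classes. Macrophages held 5.97 CPM in the naïve library (95% interval 0.151 to 33.2), 14.8 CPM at day 7 (8.30 to 24.5) and 10.9 CPM at day 14 (5.43 to 19.4), on 1, 15 and 11 UMIs. With 1 naïve UMI the log2 ratios, 1.31 (95% interval -1.39 to 6.71) at day 7 and 0.87 (-1.92 to 6.29) at day 14, were not compared against the 2-fold limit. Neurons, SGCs and Schwann cells stayed at or below 1.32 CPM in every library, and a UMI was found in 0.279, 0.418 and 0.297% of SGCs. Its larger levels were in mural cells of vessels (Rgs5, Acta2), at 91.4 CPM in the naïve library (95% interval 63.7 to 127), 69.1 CPM at day 7 (47.2 to 97.5) and 123 CPM at day 14 (98.4 to 152), and in fibroblasts, at 73.5 CPM in the naïve library (95% interval 44.9 to 113), 106 CPM at day 7 (71.8 to 149.97) and 112 CPM at day 14 (90.8 to 138). Mural cells were highest at day 14 and fibroblasts lowest in the naïve library, and no ratio reached 2-fold, with -0.40 (95% interval -1.14 to 0.33) at day 7 and 0.43 (-0.15 to 1.04) at day 14 in mural cells and 0.52 (95% interval -0.33 to 1.41) at day 7 and 0.61 (-0.09 to 1.39) at day 14 in fibroblasts. P2ry12 and P2ry14 both lie inside Med12l, which runs on the opposite strand and stood at 5.97, 3.95 and 7.90 CPM in macrophages and 46.8, 36.8 and 40.2 CPM in neurons. Of the 4 classes, P2ry12 was highest in macrophages and lowest in neurons, and P2ry14 stood at 5.97, 14.8 and 10.9 CPM in macrophages. The part of Med12l in the values of either gene was not tested.

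Entpd1 codes for the ectonucleotidase that takes ATP and ADP to AMP (chr19:40612366-40741602, plus strand; ENSMUSG00000048120). Macrophages held 119 CPM in the naïve library (95% interval 72.9 to 184), 117 CPM at day 7 (96.5 to 139.7) and 139 CPM at day 14 (117 to 164). The 3 values did not differ beyond counting error, with log2 ratios of -0.03 (95% interval -0.72 to 0.73) at day 7 and 0.22 (-0.46 to 0.98) at day 14. SGCs held 30.5 CPM in the naïve library (95% interval 25.8 to 35.8), 28.7 CPM at day 7 (23.8 to 34.4) and 30.9 CPM at day 14 (26.4 to 35.9), with log2 ratios of -0.09 (95% interval -0.45 to 0.27) at day 7 and 0.02 (-0.31 to 0.35) at day 14. By cluster the values ran opposite ways, at 12.1, 17.1 and 23.5 CPM in Egr3-led SGCs and 44.9, 36.8 and 36.8 CPM in Fabp7-led SGCs. Within each of these clusters the intervals of the libraries overlapped, and the difference between the clusters was not tested. Neurons and Schwann cells were low, at 0.719, 1.15 and 0.905 CPM and 1.17, 1.01 and 1.41 CPM. At 2000 UMIs a UMI was found in 19.4, 20.2 and 24.5% of macrophages, 4.95, 4.98 and 5.20% of SGCs and 0.0748, 0.189 and 0.34% of Schwann cells, with 29, 36 and 51 macrophages and 526, 149 and 223 Schwann cells too shallow to be thinned. SGCs without a macrophage marker UMI held Entpd1 at 30.6, 29.7 and 30.3 CPM. Vessels were a further site. Endothelial cells held 138 CPM in the naïve library (95% interval 121 to 156), 176 CPM at day 7 (157 to 198) and 178 CPM at day 14 (163 to 195), and mural cells 157 CPM in the naïve library (95% interval 119.6 to 202), 106 CPM at day 7 (78.3 to 139.8) and 86.9 CPM at day 14 (66.3 to 112). The endothelial values were higher after injury, with log2 ratios of 0.36 (95% interval 0.11 to 0.61) at day 7 and 0.37 (0.15 to 0.60) at day 14, and the mural ones lower, with -0.57 (95% interval -1.14 to 0.00) at day 7 and -0.85 (-1.39 to -0.31) at day 14, none past 2-fold. In endothelial cells 4 members were compared and 0 called at each time, beside 3.47% and 4.49% of all genes, and in mural cells 2 and then 3 were compared and 0 called, beside 6.33% and 6.95%.

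Entpd2 codes for an ectonucleotidase that acts mainly on ATP and yields ADP (chr2:25395874-25401321, plus strand; ENSMUSG00000015085). In SGCs it stood at 106 CPM in the naïve library (95% interval 96.9 to 115), 168 CPM at day 7 (156 to 181) and 197 CPM at day 14 (185 to 209). The libraries were ordered naïve, day 7 and day 14, with intervals that did not overlap. The log2 ratios were 0.67 (95% interval 0.50 to 0.83) at day 7 and 0.90 (0.74 to 1.05) at day 14, so neither passed 2-fold. A UMI was found in 41.1, 62.8 and 64.2% of SGCs, against 0, 0.481 and 2.02% of macrophages and 0.88, 1.31 and 1.58% of myelinating Schwann cells, which had fewer UMIs per cell. At 2000 UMIs the SGC shares were 19.2, 28.4 and 31.3% and the myelinating Schwann ones 0.528, 0.686 and 0.716%, so the SGC order held at equal depth. A filter of 1000 genes and 10% mitochondrial UMIs moved the ratios to 1.36 at day 7, past 2-fold, and to -0.08 at day 14, on 105, 19 and 11 SGCs. The median SGC had 13.4%, 15.002% and 15.6% mitochondrial UMIs, above the limit of that filter. With 1000 genes and the 20% limit, a setting added after seeing the data, 689, 473 and 660 SGCs remained and the call was as before.

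Non-myelinating Schwann cells, set apart from SGCs by Scn7a, held far more Entpd2 per UMI, at 759 CPM in the naïve library (95% interval 652 to 878), 1023 CPM at day 7 (873 to 1191) and 891 CPM at day 14 (791 to 999.8). Myelinating Schwann cells held 5.21, 3.34 and 5.04 CPM, so within the Schwann lineage the gene was read in the non-myelinating cells. Of 3 members compared in non-myelinating cells 0 were called, beside 7.72% and 7.78% of all genes, and the Entpd2 log2 ratios were 0.43 (95% interval 0.12 to 0.74) at day 7 and 0.23 (-0.04 to 0.51) at day 14. The 7 markers of non-myelinating Schwann cells summed in SGCs to 2164, 2368 and 2544 CPM, all 7 found and Ncam1 most abundant, and so were also higher after injury. Without the 40, 39 and 63 SGCs that had a Scn7a UMI, Entpd2 in SGCs stood at 98.4, 161 and 191 CPM, with log2 ratios of 0.71 (0.54 to 0.89) at day 7 and 0.95 (0.79 to 1.12) at day 14. Without SGCs that had a macrophage marker UMI it stood at 107, 176 and 205 CPM, with 0.72 (0.55 to 0.90) at day 7 and 0.94 (0.78 to 1.10) at day 14. Both restrictions were chosen after seeing the data. Fibroblasts held 191 CPM in the naïve library (95% interval 143 to 251), 256 CPM at day 7 (201 to 320.4) and 222 CPM at day 14 (192 to 257), and the fibroblast markers in SGCs summed to 593, 779 and 838 CPM with 5 of 6 found, Col1a2 most abundant and Pdgfra at 0, and their part in the SGC values was not tested.

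SGCs were split into several clusters made without the purinergic genes. The Egr3-led cluster held Entpd2 at 80.7, 166 and 214 CPM and the Fabp7-led cluster at 118, 163 and 178 CPM. Both were lowest in the naïve library, and the Egr3-led one spanned the wider range. A cluster led by Cxcl10 and interferon-response genes, 112, 24 and 17 SGCs, held 103, 187 and 158 CPM. A Pou3f1-led cluster, 45, 22 and 18 SGCs, held 46.7, 36.3 and 86.2 CPM, lowest at day 7, on 6, 3 and 6 UMIs. As a whole the Pou3f1-led cluster was placed in no class, and 85 of its 297 cells were gated SGCs. Egr3-led cells made up 36.6%, 46.6% and 51.4% of gated SGCs, Fabp7-led cells 39.3%, 40.5% and 39.4%, and Cxcl10-led cells 15.6%, 5.01% and 2.53%. The last 1971 bases of Entpd2, its 3′ end included, are also annotated to Npdc1 on the same strand, so a 3′ read there could belong to either gene. Npdc1 stood at 118, 133 and 134 CPM in SGCs, 223, 228 and 231 CPM in non-myelinating Schwann cells and 287, 261 and 273 CPM in neurons. It stood at 176, 147 and 198 CPM in fibroblasts, 53.1, 45.5 and 47.4 CPM in myelinating Schwann cells and 11.9, 0 and 8.89 CPM in macrophages. Neurons held Entpd2 at 3.71, 6.41 and 5.76 CPM.

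**Figure D3:**
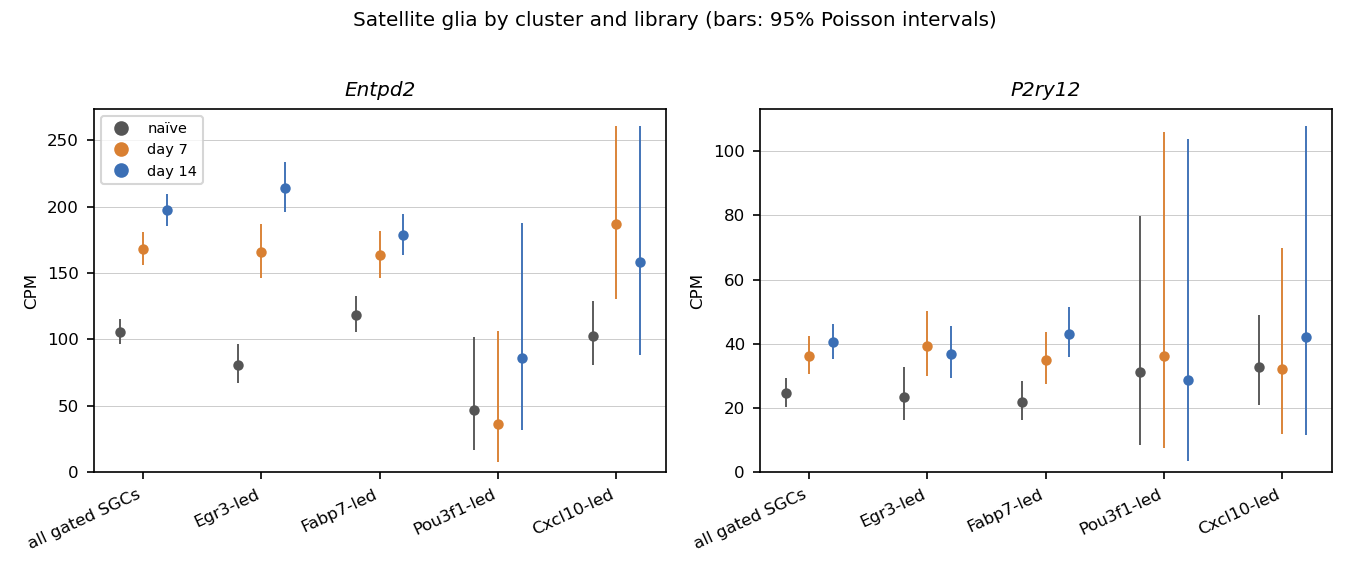
Level of Entpd2 and P2ry12 (CPM) in all gated SGCs and in SGCs of each cluster, named by its leading gene, in the naïve, day 7 and day 14 libraries, with 95% Poisson intervals. Entpd2 was lowest in the naïve library in all SGCs and in the Egr3-led, Fabp7-led and Cxcl10-led clusters, and at day 7 in the Pou3f1-led cluster.

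Nt5e codes for the enzyme that turns AMP into adenosine (chr9:88327197-88372092, plus strand; ENSMUSG00000032420). Neurons held 60.3 CPM in the naïve library (95% interval 55.1 to 65.8), 52.9 CPM at day 7 (47.3 to 59.0) and 58.9 CPM at day 14 (54.7 to 63.4). The log2 ratios were -0.19 (95% interval -0.39 to 0.02) at day 7 and -0.03 (-0.20 to 0.13) at day 14, neither past 2-fold. Weighting each neuron alike, the day 7 log2 ratio was -1.10, past 2-fold, and the day 14 ratio -0.52. That weighting counts the 66 day 7 neurons under 10000 UMIs as much as the deeper ones. With UMIs summed over neurons of at least 10000 UMIs, the ratios were -0.17 (-0.38 to 0.03) and -0.02 (-0.19 to 0.14). SGCs had 1, 1 and 4 UMIs of Nt5e and Schwann cells 1, 1 and 8, while a UMI was found in 55.0, 34.7 and 53.7% of neurons, or 10.4, 7.99 and 8.69% at 2000 UMIs. Non-peptidergic neurons were highest, at 99.9 CPM in the naïve library (95% interval 89.7 to 111), 78.8 CPM at day 7 (67.5 to 91.4) and 91.1 CPM at day 14 (79.7 to 104). Peptidergic neurons held 55.5, 49.0 and 61.2 CPM, C-low-threshold neurons 10.3, 10.8 and 11.4 CPM, and large-diameter neurons 4.07, 26.7 and 19.4 CPM. Without the non-peptidergic subgroup, neurons held Nt5e at 31.7, 38.3 and 50.4 CPM. The log2 ratios there were 0.27 (-0.06 to 0.61) at day 7 and 0.67 (0.40 to 0.94) at day 14, so the sign turned at both times and only the day 14 interval left out 0. Without the top day 7 cell, which held 38 of 149 UMIs, the day 7 ratio was -0.06 (-0.43 to 0.30). Without the top day 14 cell the day 14 ratio was 0.53 (0.26 to 0.81). Without the top cell of each library the ratios were 0.11 and 0.70, so the day 7 sign rests on single cells. These removals were chosen after seeing the data. P2rx3 and Nt5e were often found together, P2rx3 being present in 47 of 61, 25 of 35 and 51 of 70 deep neurons with Nt5e, and in 12 of 41, 5 of 17 and 15 of 40 without it.

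In fibroblasts Nt5e stood at 47.8 CPM in the naïve library (95% interval 25.4 to 81.7), 139.7 CPM at day 7 (100.3 to 189.6) and 144 CPM at day 14 (119 to 172). It was low in the naïve library and high in both injury libraries, with log2 ratios of 1.55 (95% interval 0.62 to 2.57) at day 7 and 1.59 (0.76 to 2.54) at day 14, on 13, 41 and 119 UMIs in 84, 72 and 173 fibroblasts. Of the 5 members compared in fibroblasts, Nt5e was the 1 called at each time, beside 8.9% and 10.5% of all genes called in either direction and 3.7% and 6.4% called higher. Without the fibroblast holding most Nt5e UMIs the log2 ratios were 1.74 and 1.89, and over all 11 alternatives they ran from 1.10 to 1.74 at day 7 and from 1.24 to 1.89 at day 14. A UMI was found in 13.1, 36.1 and 34.7% of fibroblasts, and at 2000 UMIs in 8.96, 27.6 and 24.0%, lowest in the naïve library both ways. Fibroblasts thus held more Nt5e per UMI than neurons after injury, the neuron to fibroblast ratio being 1.26, 0.379 and 0.409.

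The rest of the pathway was read from a list of 30 further purinergic genes, of which 21 had at least 20 UMIs in a class of the 4. Neurons led for 11 of these, macrophages for 6, and SGCs and Schwann cells for 2 each, by the mean over the libraries. P2rx5, Adora2b, Entpd6, Ada and Slc29a2 did not have the same highest class in all 3 libraries. The 6 with the highest summed levels were Acpp, Adk, P2ry6, Slc29a1, Enpp1 and Adora1. Acpp, which codes for a phosphatase able to turn AMP into adenosine, stood in neurons at 621 CPM in the naïve library (95% interval 604 to 638), 453 CPM at day 7 (436 to 469.7) and 420.2 CPM at day 14 (409 to 432), highest in the naïve library. By subgroup its log2 ratios at day 7 and day 14 were -0.19 (-0.28 to -0.10) and 0.14 (0.06 to 0.22) in non-peptidergic, -0.28 (-0.45 to -0.11) and -0.36 (-0.49 to -0.23) in peptidergic, and -0.15 (-0.29 to -0.02) and 0.13 (0.02 to 0.24) in C-low-threshold neurons. Adora1, an adenosine receptor gene, read 129 CPM in the naïve library, 112 CPM at day 7 and 98.2 CPM at day 14 in neurons, not past 2-fold. By subgroup its log2 ratios were 0.03 (-0.17 to 0.22) and 0.06 (-0.13 to 0.24) in non-peptidergic neurons, 0.01 (-0.32 to 0.35) and -0.16 (-0.43 to 0.12) in peptidergic ones, and 0.05 (-0.25 to 0.34) and 0.36 (0.13 to 0.60) in C-low-threshold ones. Adk, the adenosine kinase gene, read 355 CPM in the naïve library, 337 CPM at day 7 and 348 CPM at day 14 in neurons. P2ry6, a UDP receptor gene, was confined to macrophages among the 4 classes, at 369.9 CPM in the naïve library (95% interval 284 to 474), 348 CPM at day 7 (313 to 386) and 364 CPM at day 14 (327 to 403), with 0 to 10 UMIs in any other of the 4 in a library. The transporter gene Slc29a1 read 274 CPM in the naïve library, 139 CPM at day 7 and 166 CPM at day 14 in macrophages, and Enpp1, which codes for a pyrophosphatase acting on ATP, 141 CPM in the naïve library, 131 CPM at day 7 and 113 CPM at day 14 in SGCs.

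Of the 30 genes, 17 were compared in neurons at each time, with 1 called higher and 1 lower at day 7 and 1 higher and 0 lower at day 14, beside 5.27% and 8.26% of all genes. Their median log2 ratios in neurons were -0.21 and -0.03. In SGCs 11 were compared and 0 called at either time, beside 2.38% and 3.39%, and in Schwann cells 9 were compared and 0 called, beside 2.02% and 3.35%. In macrophages 1 of 4 was called lower at day 7 and 1 of 5 at day 14, beside 14.4% and 15.7% called in either direction. P2rx5 in neurons passed 2-fold at both times, at log2 ratios of 1.35 (95% interval -0.08 to 2.91) at day 7 and 1.35 (0.11 to 2.80) at day 14, on 7, 13 and 26 UMIs. These calls share the same 7 naïve UMIs and lie at or near the limit of 20 UMIs, so they carry little weight. Adk in macrophages passed 2-fold, lower, at both, at -1.42 (95% interval -2.70 to -0.01) at day 7 and -1.35 (-2.60 to 0.05) at day 14, on 8, 18 and 19 UMIs. In endothelial cells 1 of 7 was called higher at day 7 and 2 of 8 at day 14, beside 3.47% and 4.49% of all genes called in either direction, and in mural cells 1 of 3 was called lower at day 7 and 0 of 3 at day 14, beside 6.33% and 6.95%. Alpl, a phosphatase gene, was called higher at both in endothelial cells, at 1.5 (95% interval 0.79 to 2.26) at day 7 and 1.67 (1.02 to 2.39) at day 14, on 23, 60 and 113 UMIs.

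Genes of like pattern were sought by Pearson correlation of log2(CPM+1) over 24 points, the combinations of class and library with enough cells, among 13455 genes. The points share libraries, so the values are a description. The closest to P2rx3 were Dgki (r 0.993), Dgkk (0.990) and Grin3a (0.986), and the closest to P2ry12 were Lrrc4b (0.972), Dbi (0.9596) and Lgr5 (0.958). P2ry14 was closest to Zic5 (0.982), P2rx4 to Slc35b2 (0.955) and Entpd2 to Gm29683 (0.949). Panx1 was closest to Jpt1 (0.919), P2rx7 to Itpr3 (0.916) and P2ry1 to Cpne8 (0.915). Nt5e and Entpd1 had the weakest closest genes, Capn1 (0.842) and Epas1 (0.827).

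Sequences before the transcription start were taken from RefSeq (build GRCm38.p6) for the 9 of 10 members with an entry, at 14 starts. P2rx3 was the member without one. The 5 macrophage-led members share a leading class among the 4 classes only, and 3 of their promoters are printed. By the mean over the libraries, P2ry14 was higher in fibroblasts (97.2 CPM) and mural cells (94.5 CPM) than in macrophages (10.6 CPM). Entpd1 was likewise higher in endothelial cells (164 CPM) than in macrophages (125 CPM). The 250 bases before each start were searched on both strands for GAGGAA, the core of the motif bound by the myeloid factor Spi1, which occurs in 23.3% of the 32851 promoters of that length. It was present at all 4 starts of P2ry14, whose windows partly overlap, and at the second start of Entpd1, and not present before P2rx4, P2rx7, P2ry12 or the first start of Entpd1. The Runx core TGTGGT, found in 14.0% of promoters, was present before Panx1 at 2 places. The E-box CACGTG, found in 6.02% of promoters, was present before P2ry12. TATAAA, the TATA box, found in 12.4% of promoters, was searched as well and was present at 1 of the 4 P2ry14 starts. Capitals mark GAGGAA or its reverse complement in the sequences from 5′ to 3′ of Entpd1 (chr19:40659520-40659769, plus strand), P2ry14 (chr3:59153493-59153742, minus strand) and P2ry12 (chr3:59262986-59263235, minus strand). A match is a description, not a site or a cause, and its absence says only that these letters are not in this window.
Entpd1: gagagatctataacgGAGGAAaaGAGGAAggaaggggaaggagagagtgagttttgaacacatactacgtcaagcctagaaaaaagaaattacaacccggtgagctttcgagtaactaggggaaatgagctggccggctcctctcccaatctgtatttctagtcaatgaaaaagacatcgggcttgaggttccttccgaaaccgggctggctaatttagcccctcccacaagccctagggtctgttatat
P2ry14: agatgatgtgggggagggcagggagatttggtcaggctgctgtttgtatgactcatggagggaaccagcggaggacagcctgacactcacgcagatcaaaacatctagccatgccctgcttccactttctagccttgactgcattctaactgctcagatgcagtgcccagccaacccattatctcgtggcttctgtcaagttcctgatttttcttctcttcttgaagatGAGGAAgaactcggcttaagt
P2ry12: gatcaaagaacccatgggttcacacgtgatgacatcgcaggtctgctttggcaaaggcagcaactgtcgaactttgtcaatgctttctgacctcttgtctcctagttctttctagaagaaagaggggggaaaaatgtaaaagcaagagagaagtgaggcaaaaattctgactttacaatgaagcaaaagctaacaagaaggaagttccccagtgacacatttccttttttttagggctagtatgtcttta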

How the data were processed

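The authors deposited UMI counts per barcode for 3 libraries, made with Cell Ranger 3.0.2 on mm10 according to the submitters' notes. The injury is named as in the sample labels, while the Results of the paper word it as a partial ligation and its Discussion as the spared nerve injury model. The methods of the paper name female mice, unlike the male mice given here for these libraries. The sources used here do not give the gene annotation release or any further single-cell methods, and the gene identifiers were matched to GENCODE vM21, which held 30934 of 31053. Counts were read with Python 3.11.15, numpy 2.4.6 and scipy 1.17.1. The filter asked for 500 genes or more and a mitochondrial share of 20% or less, and doublets stayed in. Each cell was given to the class whose markers scored highest on log-normalised counts (each marker scaled to its 95th percentile), if that score was at least 0.2 and 1.5 times the next. SGC-like cells with Scn7a at 1000 CPM or more were called non-myelinating Schwann cells. The gate's rule was chosen after seeing the data. Marker values of the Schwann class are not reported here. UMIs were summed per class and library, and ratios carry exact conditional binomial intervals, shares Clopper-Pearson intervals and counts of 0 the limit of 3 counts. With 1 library per condition no test was possible. Shares at equal depth are expected values after thinning each cell to 2000 UMIs. The members and lists were chosen with earlier results of these data known. All 10 members are named whatever their values. Of the wider list, the 6 highest and those past 2-fold in the same direction at both times are named, and the genes of like pattern are the closest to each member, or the 3 closest. Clusters (Leiden, leidenalg 0.10.2) and doublet calls (Scrublet in scanpy 1.11.5) served as alternatives.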

Additional observations from a re-analysis of the deposited data

How the results depend on the processing

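No paired analysis was possible because the labels tie no library of one condition to another and give 1 library per condition. The count of members placed in 1 class in all 3 libraries was 10 and ran from 8 to 10 over the alternatives, and the day 14 count past 2-fold was 1 under each alternative it was counted for, which left out the one without C-low-threshold neurons. The day 7 count, 1 in the report, was 2 under the filter of 1000 genes and 10% mitochondrial UMIs (Entpd2 at 1.36 on 19 day 7 SGCs), 2 with the mean of per-cell CPM (Nt5e at -1.10) and 2 where 1 UMI in each library sufficed (P2ry14 at 1.31 on 1 naïve UMI). P2ry1 in neurons at day 14 reversed to 0.35 (-0.09 to 0.80) without C-low-threshold neurons, and stayed past 2-fold under the 12 other alternatives. That reversal rests on single cells, the ratio being -0.08 (-0.54 to 0.40) there without the top day 14 cell. Of 417 ratios under alternatives, 396 stayed within the interval of the reported value, 20 moved beyond it and 1 past 2-fold reversed. Some of the 20 changed sign, with Panx1 in neurons at day 7 at -0.07, P2rx4 in neurons at day 7 at -0.02, Entpd2 in SGCs at day 14 at -0.08, Nt5e in neurons at day 14 at 0.25, and P2rx4 in SGCs at -0.57 at day 7 and 0.72 at day 14. The causes were not tested. Of the shares, 37 of 192 moved at full depth and 25 of 30 when thinned to 2000 UMIs. Leaving out the 90 cells that Scrublet called (0.931%) changed none of the 3 counts. The filter with 1000 genes and 20% mitochondrial UMIs, the exchange of Schwann classes, the restrictions of SGCs and neurons and the removal of top cells within neuron subgroups were chosen after seeing the data. Depth limits P2ry14 in the 4 classes, every naïve macrophage value (67 cells) and P2ry12 in neurons.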

Other observations

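Small immune classes also held purinergic transcripts. T or NK cells numbered 8, 21 and 36, and there Panx1 had 0 UMIs in the naïve library (limit 159.9 CPM), 89.7 CPM at day 7 (36.1 to 185) on 7 UMIs in 7 cells, and 45.4 CPM at day 14 (14.7 to 106). P2rx7 had 13 UMIs in the 36 T or NK cells of day 14, at 118 CPM (62.8 to 202). Neutrophils, 16, 17 and 27 cells, held Entpd1 on 4, 0 and 10 UMIs. B cells numbered 13, 5 and 19, and all 5 UMIs of P2ry14 found in them came from 1 cell of day 7. These classes are too small for a comparison between libraries.

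Further genes of the wider list were read in single classes. P2ry13, an ADP receptor gene, stood in macrophages at 89.5 CPM in the naïve library (95% interval 50.1 to 148), 75.1 CPM at day 7 (59.2 to 94.0) and 72.1 CPM at day 14 (56.5 to 90.7), with at most 5 UMIs in any other of the 4 classes. P2ry2, a receptor gene for ATP and UTP, was highest in Schwann cells, at 61.9 CPM in the naïve library (95% interval 54.6 to 69.8), 68.0 CPM at day 7 (61.0 to 75.7) and 65.6 CPM at day 14 (59.8 to 71.9). Alpl was highest of the 4 classes in SGCs, at 60.2 CPM in the naïve library (95% interval 53.5 to 67.5), 55.0 CPM at day 7 (48.1 to 62.7) and 41.8 CPM at day 14 (36.5 to 47.6), lowest at day 14. Entpd3, an ectonucleotidase gene, stood in neurons at 74.2 CPM in the naïve library (95% interval 68.4 to 80.2), 58.5 CPM at day 7 (52.6 to 64.9) and 56.8 CPM at day 14 (52.7 to 61.3), and in both non-peptidergic and C-low-threshold neurons, at 93.9, 76.0 and 106 CPM and 85.4, 93.9 and 96.9 CPM. These 4 genes were chosen here after their values were seen.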
